A study of Homo sapiens with 3 samples.

Results

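The collagen chain genes and the genes for collagen-processing enzymes were examined in RNA sequencing of cells labelled as DU145, an established human line derived from a metastasis of a prostate carcinoma. Members were the protein-coding genes named COL, a number, A and a number, together with the prolyl hydroxylase subunits P4HA1 to P4HA3, the lysyl hydroxylases PLOD1 to PLOD3, the lysyl oxidases LOX and LOXL1 to LOXL4, and SERPINH1. This rule found 45 of the 23379 genes in the tables, of which 33 were collagen chains and 12 were enzymes or the chaperone. Each of the 3 groups had 1 library: a negative control named P-Enter, WT, in which wild-type BRAF was overexpressed, and L597R, which received a plasmid with that BRAF mutant. BRAF is the kinase between RAS and MEK. All 3 groups were the same line, and the time after transfection, the promoter of the plasmids and whether cells were pooled or cloned are not given in the sources used here.

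The values were FPKM, reads per kilobase of gene scaled to the counted reads of the library, so levels of different genes can be compared per length. Sets of 3 values below are always in the order P-Enter, WT, L597R. Whole reads behind each FPKM value were recovered for all 45 genes, from library totals of 13294004, 15665132 and 16603676 counted reads. BRAF, the targeted gene, was at 1.65, 4.41 and 9.59 FPKM. That the cells are DU145 is known from the labels alone, and several epithelial markers were low. Of 7 measured epithelial markers 3 averaged 1 FPKM or more: KRT7 at 28.9, 27.2 and 26.9 FPKM, KRT18 at 34.3, 36.6 and 37.6, and the tight junction gene OCLN at 1.73, 1.77 and 1.18. OCLN was lower in L597R than in P-Enter, with a read ratio of 0.680 (0.566 to 0.817) and of 0.587 (0.488 to 0.705) after the regression described below. The keratin KRT8 was at 0.623, 0.584 and 0.534 FPKM, CLDN4 had 18, 18 and 9 reads, KRT19 3, 0 and 1, and the cadherin CDH1, which defines epithelial junctions, 1, 0 and 0. The part of these differences in the members' values was not tested. Of 10 fibroblast markers 7 were measured: FBLN1 was at 62.2, 57.1 and 54.1 FPKM, and each of the others, DCN and PDGFRA among them, had fewer than 20 reads in any library. No endothelial or blood cell marker reached 1 FPKM on average. In bulk RNA, fewer cells of a type and less RNA per cell cannot be told apart. With 1 library per group no comparison has a replicate check or a p-value. Intervals below are exact 95% intervals for counting error only, and they compare libraries rather than conditions.

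Collagens are secreted proteins built from 3 chains wound into a triple helix with glycine at regular places. Inside the endoplasmic reticulum, prolyl hydroxylases stabilise the helix, lysyl hydroxylases modify lysines for later cross-linking and glycosylation, and HSP47, the product of SERPINH1, binds the folded helix. Outside the cell, lysyl oxidases start the cross-links between collagen molecules. In carcinomas most fibrillar collagen is laid down by stromal fibroblasts, while tumour cells can contribute basement membrane collagens and modifying enzymes.

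Most collagen chain genes were close to silent in all 3 libraries, and the processing machinery was not. The filter used for comparisons, an average of 1 FPKM or more across the libraries, was reached by 4 of 33 chains and by 8 of 12 processing genes. Of the 33 members below it, 19 had fewer than 10 reads over all 3 libraries, and 15 of all members had no read in at least 1 library. Where a library had no read, the upper limit allowed by 3 reads was 0.226, 0.192 and 0.181 CPM, the counts scaled to library size. Summed over the 33 chains, the level was 34.9, 34.6 and 31.4 FPKM. Summed over the 12 processing genes it was 195, 198 and 215 FPKM, which is 5.59, 5.72 and 6.85 times the chain sum. A further 11 chain genes on the list, among them COL1A2, COL6A3 and COL15A1, were not analysed here.

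**Figure D1:**
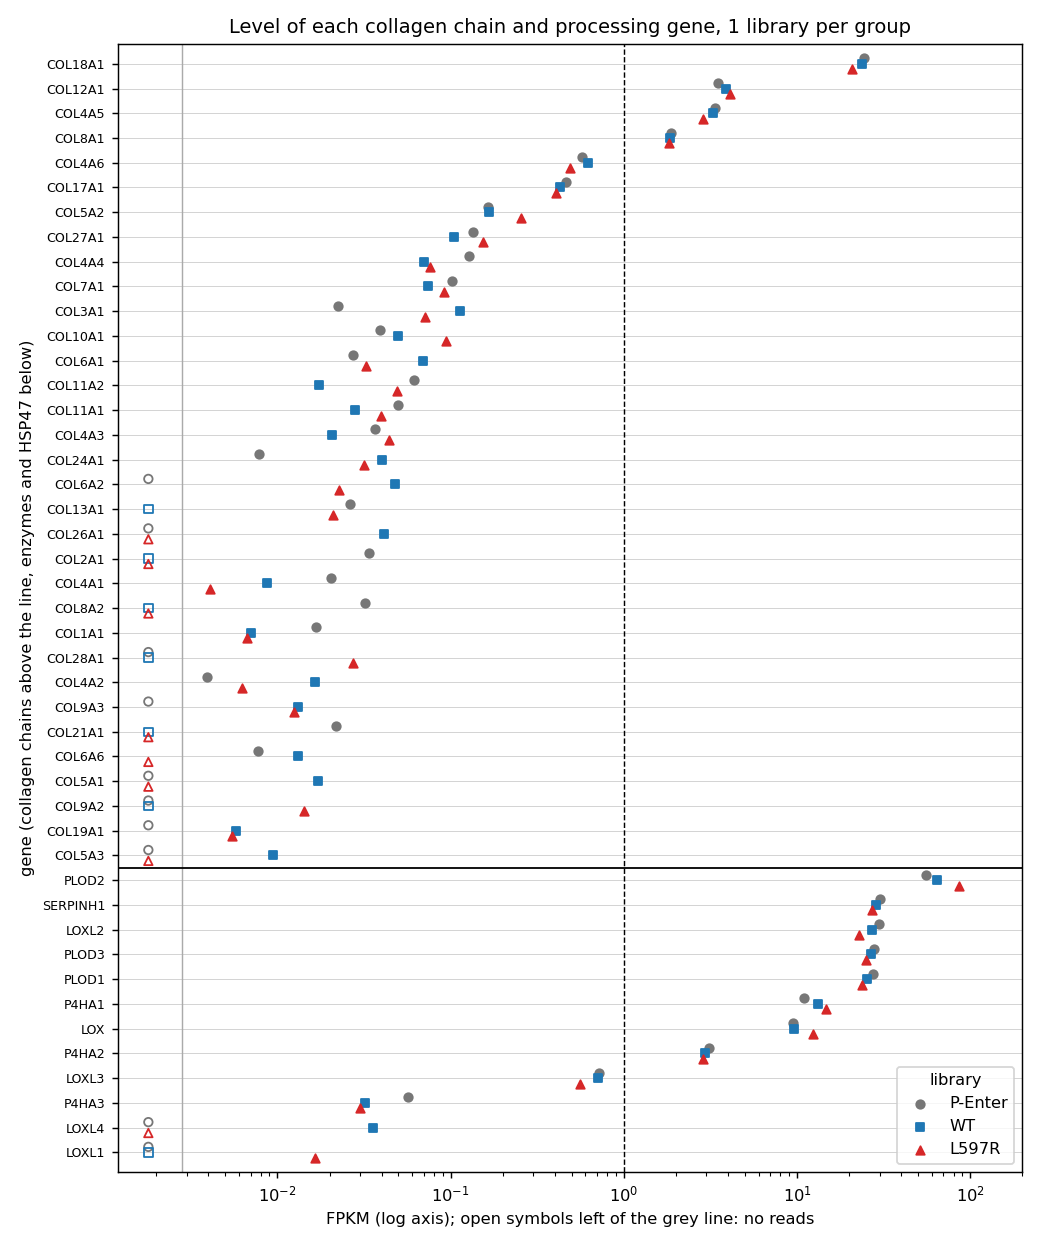
FPKM on a log axis for each of the 45 genes (rows), with 1 symbol per library (P-Enter circle, WT square, L597R triangle); open symbols left of the grey line had no reads, and the dashed line marks 1 FPKM. Chains are sorted by mean level above the black line, processing genes below it: 4 chains and 8 processing genes lie to the right of 1 FPKM.

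COL18A1 held most of the chain signal. It encodes the chain of collagen XVIII, a basement membrane heparan sulfate proteoglycan whose C-terminal fragment is endostatin, and COL18A1 (ENSG00000182871) lies on chromosome 21 from 45405137 to 45513720 (GENCODE 29 on GRCh38, as for all positions of genes below). Its level was 24.2, 23.6 and 20.7 FPKM, from 2723, 3133 and 2909 reads, with L597R the lowest. That was 69.3%, 68.2% and 65.9% of the summed chain level. The next chain, COL12A1 (chromosome 6, 75084326 to 75206051), encodes a fibril-associated collagen and was at 3.50, 3.88 and 4.08 FPKM. COL4A5 (chromosome X, 108439844 to 108697545), a collagen IV chain of specialised basement membranes, was at 3.38, 3.29 and 2.88 FPKM. COL8A1 (chromosome 3, 99638475 to 99799226), a short-chain network collagen, was at 1.88, 1.85 and 1.81 FPKM. Those 4 genes made up 94.4%, 94.3% and 93.8% of the chain sum.

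The chains that make common fibrils and the ubiquitous basement membrane network were nearly absent. For COL1A1, the main chain of type I collagen, there were 2, 1 and 1 reads. The 10 fibrillar chains with a row summed to 61, 71 and 93 reads, and COL5A2 (16, 19 and 31 reads) and COL27A1 (25, 23 and 36) gave most of these. COL3A1 had 2, 12 and 8 reads. COL2A1 had 3 reads in P-Enter alone, COL5A1 3 and COL5A3 1 in WT alone, and COL11A1, COL11A2 and COL24A1 lay between 1 and 6 reads in each library. COL4A1 and COL4A2, the chains of the collagen IV found in nearly all basement membranes, had 4, 2 and 1 and 1, 5 and 2 reads. COL4A5, in contrast, had 533, 612 and 567.

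Among the other chains, COL4A6 (71, 90 and 75 reads; 0.575, 0.619 and 0.487 FPKM) and COL17A1 (43, 47 and 47 reads; 0.463, 0.429 and 0.405 FPKM) were the highest below the filter. COL17A1 is the transmembrane collagen of epithelial hemidesmosomes. COL7A1, which forms the anchoring fibrils below epithelia, had 15, 13 and 17 reads, and COL4A4 had 20, 13 and 15. COL4A3, a further collagen IV chain, had 6, 4 and 9 reads, and COL10A1, known from hypertrophic cartilage, 2, 3 and 6. The collagen VI chains COL6A1, COL6A2 and COL6A6 had 0 to 6 reads per library. COL8A2, COL9A2, COL9A3, COL13A1, COL19A1, COL21A1, COL26A1 and COL28A1 had 0 to 4.

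The most abundant member was PLOD2, the lysyl hydroxylase of collagen telopeptides. PLOD2 (ENSG00000152952, chromosome 3, 146069440 to 146163653, minus strand) was at 55.5, 63.9 and 86.0 FPKM, from 5657, 7672 and 10945 reads. Counted from the highest of 23379 genes, it stood at place 811, 669 and 471. It was lowest in P-Enter and highest in L597R. PLOD1 (chromosome 1, 11934205 to 11975538), which hydroxylates lysines of the helix, was at 27.5, 25.2 and 23.7 FPKM, the reverse order. PLOD3 (chromosome 7, 101205977 to 101218420), which also transfers sugars to hydroxylysine, was at 27.7, 26.8 and 24.9 FPKM. PLOD2 therefore made up 50.1%, 55.1% and 63.9% of the summed lysyl hydroxylase level.

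Of the prolyl hydroxylase catalytic subunits, P4HA1 led and P4HA3 was nearly silent. P4HA1 (ENSG00000122884, chromosome 10, 73007217 to 73096974) was at 11.02, 13.2 and 14.7 FPKM. P4HA2 (chromosome 5, 132191838 to 132295315) was at 3.12, 2.95 and 2.86 FPKM. P4HA3 had 3, 2 and 2 reads. The ratio of P4HA1 to P4HA2 was 3.53, 4.48 and 5.14. P4HB, the subunit shared by these enzymes, belongs to the list of other folding factors below.

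Of the 5 lysyl oxidases, LOXL2 and LOX were above the filter. LOXL2 (ENSG00000134013, chromosome 8, 23297189 to 23425328), which oxidises collagen IV and is also studied as a nuclear protein in carcinoma cells, was at 29.7, 27.0 and 22.9 FPKM, lowest in L597R. LOX (ENSG00000113083, chromosome 5, 122063195 to 122078360), the founding member of the family, was at 9.53, 9.62 and 12.3 FPKM, with L597R the highest and the other libraries close together. LOXL3 was at 0.716, 0.706 and 0.560 FPKM, LOXL4 had 0, 2 and 0 reads and LOXL1 0, 0 and 1. The ratio of LOXL2 to LOX was 3.12, 2.81 and 1.86. SERPINH1 (chromosome 11, 75562056 to 75572783) was at 30.1, 28.5 and 27.2 FPKM, second in mean level among all members.

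**Figure D2:**
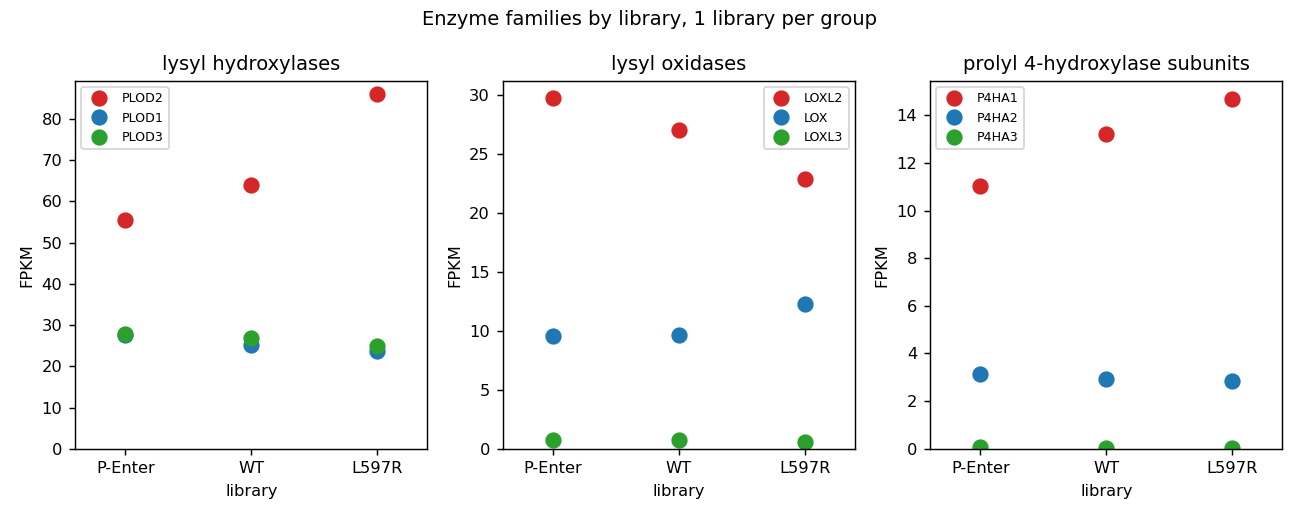
FPKM (vertical axis from 0) by library (horizontal axis) for the lysyl hydroxylases, the 3 highest lysyl oxidases and the prolyl hydroxylase subunits; each point is 1 library. PLOD2 reaches 86.0 FPKM in L597R while PLOD1 and PLOD3 are at 23.7 and 24.9, LOXL2 and LOX lie closer together in L597R than in P-Enter, and P4HA1 is above P4HA2 in all 3 libraries.

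Above the filter, PLOD2, P4HA1 and LOX were the 3 processing genes whose level was highest in L597R, and all 3 are known from other work as targets of hypoxia-inducible factors. P4HA2 is on the same list of hypoxia-responsive genes and was lowest in L597R. Their promoter windows (250 bases before to 50 after the transcript start, RefSeq, GRCh38.p14) are shown to let the start regions be compared with that of PLOD1, a family member of PLOD2 that was lowest in L597R, as PLOD3 also was. Capitals mark the core of the hypoxia response element, searched as ACGTG or GCGTG on both strands.
PLOD2, chr3:146161135-146161434, minus strand: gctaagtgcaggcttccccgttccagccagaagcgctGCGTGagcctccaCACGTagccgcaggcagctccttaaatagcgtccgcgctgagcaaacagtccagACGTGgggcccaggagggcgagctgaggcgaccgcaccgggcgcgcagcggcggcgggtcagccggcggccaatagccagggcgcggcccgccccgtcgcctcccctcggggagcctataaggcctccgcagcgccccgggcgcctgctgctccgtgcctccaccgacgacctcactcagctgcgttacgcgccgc
P4HA1, chr10:73096817-73097116, minus strand: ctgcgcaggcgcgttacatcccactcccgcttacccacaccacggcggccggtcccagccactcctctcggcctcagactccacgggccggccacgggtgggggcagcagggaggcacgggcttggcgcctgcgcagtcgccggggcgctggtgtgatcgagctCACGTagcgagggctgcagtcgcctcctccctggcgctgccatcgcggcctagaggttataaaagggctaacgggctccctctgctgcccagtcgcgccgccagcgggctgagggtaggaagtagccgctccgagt
LOX, chr5:122078210-122078509, minus strand: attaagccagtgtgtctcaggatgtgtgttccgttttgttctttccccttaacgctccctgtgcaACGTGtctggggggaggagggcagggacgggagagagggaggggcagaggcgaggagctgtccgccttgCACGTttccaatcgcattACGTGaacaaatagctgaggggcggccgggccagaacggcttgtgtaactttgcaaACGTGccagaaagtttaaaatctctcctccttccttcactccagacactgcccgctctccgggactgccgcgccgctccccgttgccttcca
PLOD1, chr1:11934467-11934766, plus strand: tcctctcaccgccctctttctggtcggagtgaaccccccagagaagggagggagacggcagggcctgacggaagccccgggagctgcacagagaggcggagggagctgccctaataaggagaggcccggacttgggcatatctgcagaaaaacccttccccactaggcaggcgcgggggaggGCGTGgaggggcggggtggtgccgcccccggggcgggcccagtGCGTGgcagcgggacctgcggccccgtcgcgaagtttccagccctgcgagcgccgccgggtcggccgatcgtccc
The core occurred 3 times in the window of PLOD2, 1 time in that of P4HA1, 4 times in that of LOX and 2 times in that of PLOD1. The windows of PLOD3 and P4HA2 had 0, and the RefSeq start of P4HA2 lies 68224 bp from the GENCODE start. SERPINH1, also lowest in L597R, had 1 in its nearest window and 3 in another. COL12A1, highest in L597R, had 2. COL4A5, lowest in L597R, had 0, and COL18A1, also lowest there, had 0 in its nearest window and 1 in another. LOXL2 and COL8A1 had no window. Whether the core goes with the direction of the difference was not tested. The core was present in 48.4% of all 35116 windows of this length and in 54.8% of the 21558 windows of protein-coding genes. For the 51 windows of members, more than 1 for some genes, the share was 45.1%. A window was found for 36 of the 45 members, and the one nearest to the GENCODE 29 start of the gene was taken. For PLOD2 the RefSeq start used lies 2469 bp inside the GENCODE gene, for PLOD1 512 bp, and for P4HA1 and LOX within 108 bp of the annotated start. A match of letters is no evidence of binding.

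In WT against P-Enter the members' differences were small. None of the 12 members above the filter passed the size rule, a log2(FPKM + 1) difference of at least 1, which 0.978% of the 10639 genes passed. Their median difference was -0.03 on this scale, with 4 above and 8 below P-Enter, against -0.00069 over all genes. The interval of the read ratio lay above 1 for 3 of the 12, where 14% of all genes did so. P4HA1 had the highest ratio at 1.201 (1.06 to 1.36), followed by PLOD2 at 1.15 (1.11 to 1.19) and COL12A1 at 1.11 (1.01 to 1.21). It lay below 1 for 3 of the 12, where 12.1% of genes did so. These were LOXL2 at 0.908 (0.858 to 0.961), PLOD1 at 0.917 (0.861 to 0.975) and SERPINH1 at 0.946 (0.896 to 0.999). For COL18A1, PLOD3, LOX, COL4A5, P4HA2 and COL8A1 the interval held 1.

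Below the filter, COL3A1 was the 1 of 33 members with an interval leaving out 1. Its ratio of 5.09 for WT against P-Enter had an interval of 1.13 to 46.8, from 12 reads against 2. The share of all genes below the filter with such an interval was not computed, so this cannot be read as a result about COL3A1. No other member below the filter had an interval leaving out 1 in any of the 3 comparisons.

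In L597R against P-Enter the enzymes differed in both directions. PLOD2 was higher by a read ratio of 1.55 (1.5 to 1.6), P4HA1 by 1.33 (1.19 to 1.503) and LOX by 1.29 (1.17 to 1.42), and among chains COL12A1 by 1.17 (1.07 to 1.27). LOXL2 was lower at 0.770 (0.726 to 0.816). COL4A5 was at 0.852 (0.755 to 0.960), COL18A1 at 0.855 (0.812 to 0.902), PLOD1 at 0.861 (0.809 to 0.916), PLOD3 at 0.897 (0.845 to 0.952) and SERPINH1 at 0.905 (0.857 to 0.955). P4HA2 at 0.917 (0.803 to 1.05) and COL8A1 at 0.964 (0.808 to 1.15) had intervals holding 1. The interval thus lay above 1 for 4 of 12 members, where 25.5% of all genes did so, and below 1 for 6, where 23.9% did so. None passed the size rule (0.808% of genes). The largest log2 differences were 0.62 for PLOD2 and -0.36 for LOXL2, and the median over the 12 was -0.12 against -0.01 over all genes. With the interval required to lie beyond 1.2-fold, PLOD2 was the 1 member above (7.71% of all genes were) and LOXL2 the 1 member below (1.51%).

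**Figure D3:**
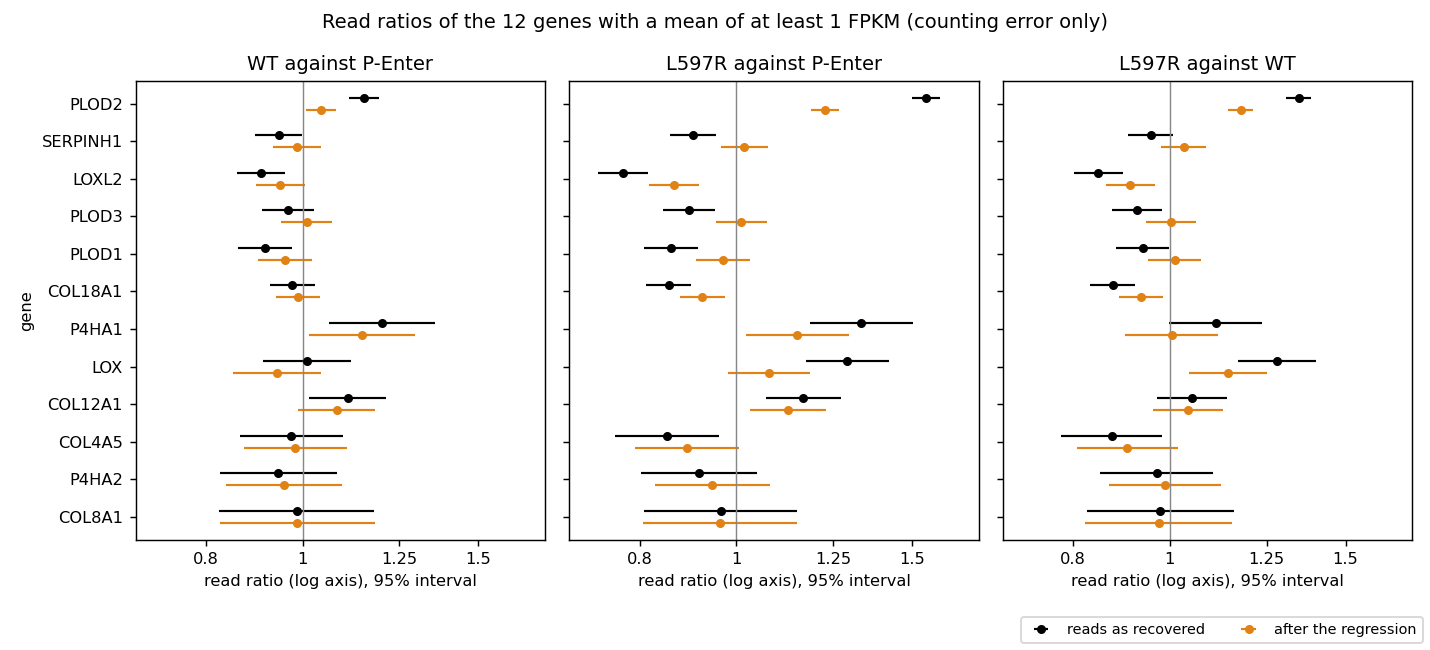
Read ratios on a log axis with exact 95% intervals (bars, counting error only) for the 12 members with a mean of at least 1 FPKM in the 3 comparisons; black points are the recovered reads and orange points the same after a regression on transcript length, GC content and level. In L597R against P-Enter the black points run from 0.770 for LOXL2 to 1.55 for PLOD2, and the orange ones from 0.866 to 1.23.

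The 2 comparisons above share the P-Enter library. L597R was also set against WT, from the same libraries, so each ratio follows from the 2 above and is no independent check. PLOD2 was higher in L597R than in WT at 1.35 (1.31 to 1.39) and LOX at 1.28 (1.17 to 1.40). Those were the 2 of 12 members with an interval above 1, where 22.1% of all genes had one. LOXL2 at 0.848 (0.801 to 0.897), COL4A5 at 0.874 (0.778 to 0.982), COL18A1 at 0.876 (0.833 to 0.922), PLOD3 at 0.928 (0.876 to 0.982) and PLOD1 at 0.939 (0.883 to 0.998) made up the 5 of 12 below 1, where 16.3% of genes lay. Beyond 1.2-fold, PLOD2 was the 1 member above (1.71% of genes) and there was 0 below (0.88%). P4HA1 was at 1.11 (0.999 to 1.24) and COL12A1 at 1.05 (0.972 to 1.14). None passed the size rule (0.724% of genes), and the median difference was -0.05 against 0.01 over all genes. BRAF was also higher in L597R than in WT, so the mutant and the amount of BRAF cannot be told apart.

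Within enzyme families the balance in L597R lay further toward PLOD2, LOX and P4HA1 than in P-Enter. The ratio of PLOD2 to PLOD1 was 2.02, 2.53 and 3.63, and it differed 1.80-fold between L597R and P-Enter (1.68 to 1.93, exact conditional interval). The ratio of LOX to LOXL2 differed 1.68-fold in that comparison (1.501 to 1.88) and that of P4HA1 to P4HA2 1.46-fold (1.22 to 1.74). For WT against P-Enter the corresponding values were 1.26 (1.17 to 1.35), 1.11 (0.989 to 1.248) and 1.27 (1.06 to 1.52), so the change in LOX relative to LOXL2 was not detectable in WT at this depth.

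These directions followed the base composition of the transcripts. Across 9358 protein-coding genes the difference between L597R and P-Enter was lower at higher GC content (Spearman -0.70, across genes, which are not independent replicates), and for WT against P-Enter the coefficient was -0.46. Over the 12 members the coefficients were -0.85 and -0.74, as a description. PLOD2 (GC content 37.6%), LOX (39.6%), P4HA1 (40.8%) and COL12A1 (46.3%), the 4 members higher in L597R, had the lowest GC content of the 12. LOXL2 (58.2%), PLOD1 (58.6%), SERPINH1 (58.7%), PLOD3 (61.7%) and COL18A1 (67.2%) had the highest. A regression on length, GC content and mean FPKM (cubic terms, with length and FPKM as logarithms) removed 48.8% of the variance between L597R and P-Enter and 18.8% of that between WT and P-Enter. Where the trend comes from was not tested.

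**Figure D4:**
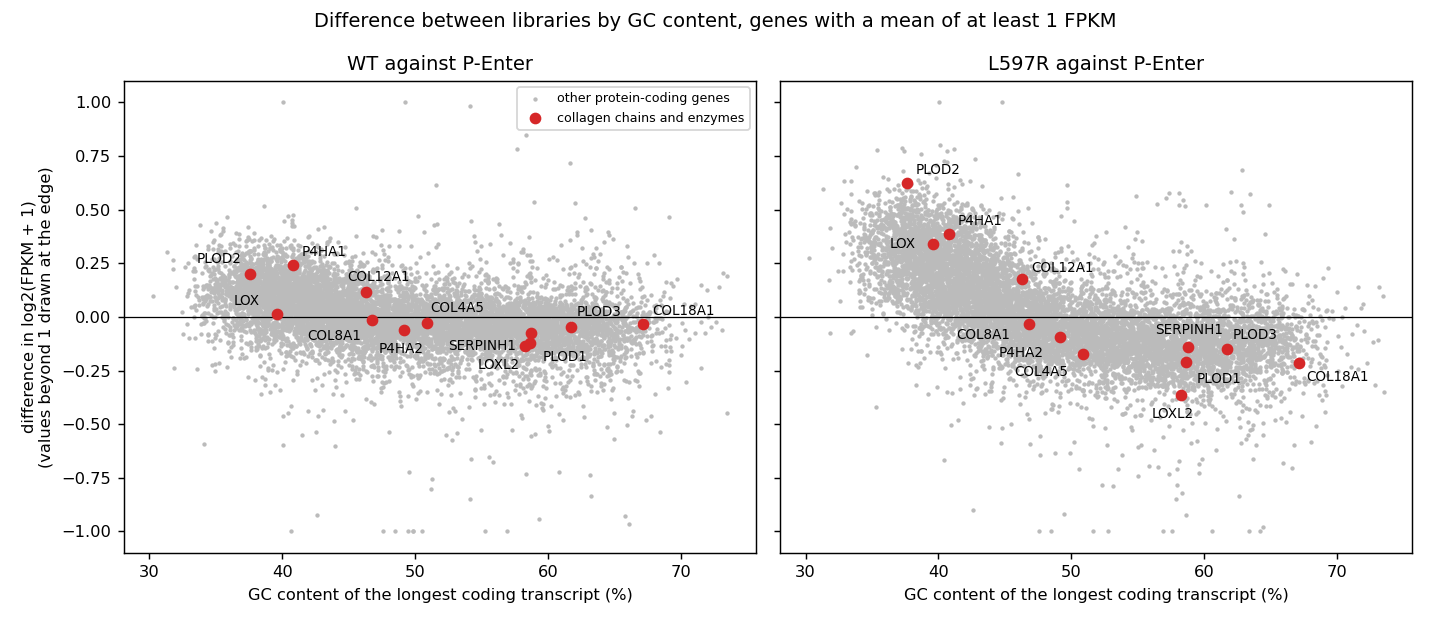
Difference in log2(FPKM + 1) against GC content (%) of the longest coding transcript, with P-Enter as the reference library; grey points are protein-coding genes with a mean of at least 1 FPKM (values beyond 1 drawn at the edge) and red points the 12 members. The grey cloud slopes down, more so for L597R, and the members lie along it, with PLOD2 in the upper and LOXL2 in the lower part of the cloud at their GC content in L597R.

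After the regression, PLOD2 and LOXL2 in L597R still had intervals leaving out 1, with ratios closer to 1. In L597R against P-Enter the ratio became 1.23 (1.19 to 1.27) for PLOD2, 1.15 (1.02 to 1.296) for P4HA1 and 1.13 (1.03 to 1.23) for COL12A1, the 3 members then above 1 where 17% of genes were. LOXL2 became 0.866 (0.817 to 0.918) and COL18A1 0.925 (0.877 to 0.975), the 2 then below 1 where 16.5% were. LOX at 1.08 (0.981 to 1.19), PLOD1 at 0.970 (0.912 to 1.03), COL4A5 at 0.892 (0.791 to 1.01), PLOD3 at 1.01 (0.953 to 1.07) and SERPINH1 at 1.02 (0.965 to 1.08) then had intervals holding 1, the last 2 with the direction turned. The median difference of the 12 members went from -0.12 to -0.02. Beyond 1.2-fold there was then 0 of 12 above (0.903% of genes) and 0 below (1.11%). The trend alone gave a change in the ratio of PLOD2 to PLOD1 of 1.42 and in that of LOX to LOXL2 of 1.35, against the 1.80 and 1.68 measured. In WT against P-Enter the ratio was 1.04 (1.01 to 1.08) for PLOD2 and 1.15 (1.01 to 1.296) for P4HA1, the 2 then above 1 (10% of genes), and no member was below 1 (10.5%). In L597R against WT, PLOD2 at 1.18 (1.14 to 1.21) and LOX at 1.14 (1.05 to 1.252) were above 1 (13.6% of genes), and LOXL2 at 0.913 (0.862 to 0.966) and COL18A1 at 0.935 (0.889 to 0.984) below it (13.1%).

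Collagen IV genes lie in pairs, head to head, and the pair on chromosome X was the expressed one. COL4A5 and COL4A6 are separated by 346 bp between their annotated ends, and COL4A6 runs from 108155607 to 108439497 on the minus strand. The windows of both starts share 121 bases (108439588 to 108439708), which are in capitals in the window of COL4A5 (GRCh38.p14), shown because the window of each gene reaches into that of the other.
COL4A5, chrX:108439588-108439887, plus strand: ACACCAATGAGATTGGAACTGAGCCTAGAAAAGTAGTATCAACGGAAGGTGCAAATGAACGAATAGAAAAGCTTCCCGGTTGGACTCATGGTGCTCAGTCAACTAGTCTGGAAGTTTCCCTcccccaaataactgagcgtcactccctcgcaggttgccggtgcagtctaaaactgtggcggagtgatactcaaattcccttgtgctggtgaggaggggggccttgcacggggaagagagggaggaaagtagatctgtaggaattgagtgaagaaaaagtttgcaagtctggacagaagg
The level of COL4A5 was 5.87, 5.32 and 5.91 times that of COL4A6. That ratio did not differ detectably between libraries at this depth, with a change of 1.01 (0.702 to 1.44) in L597R and 0.906 (0.640 to 1.28) in WT, both against P-Enter. COL4A3 and COL4A4, 111 bp apart on chromosome 2, had 6, 4 and 9 and 20, 13 and 15 reads. COL4A1 and COL4A2, whose annotated genes overlap on chromosome 13, had at most 5 reads each in a library. The neighbours COL6A1 and COL6A2 on chromosome 21 had at most 6 reads, and COL3A1 and COL5A2 on chromosome 2 are tail to tail, 19149 bp apart.

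Genes that overlap a member can bear on its counts, since the strand setting of the counting is not given in the sources used here. SRFBP1 lies on the opposite strand to LOX, shares 138 exonic bases with it and was at 7.93, 10.4 and 13.3 FPKM, highest in L597R as LOX was. SLC19A1, opposite COL18A1, shares 1401 exonic bases and was at 8.33, 8.11 and 7.69 FPKM. ZNHIT1, opposite PLOD3, shares 429 and was at 17.02, 15.1 and 14.7 FPKM. ENTPD4, on the strand of LOXL2, shares 120 and was at 5.08, 5.94 and 6.19 FPKM, the opposite order to LOXL2. The part of these neighbours in the members' values was not tested. PLOD2, the member with the most reads, shares no exonic base with another annotated gene.

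Of the wider collagen pathway, nearly all genes of folding and export were above the filter. Listed genes of propeptide processing, collagen binding, collagen degradation and collagen receptors were above it less often. Of 18 other folding and modifying factors 17 were above the filter, with a summed level of 1538, 1465 and 1386 FPKM. For L597R, 3 had a higher and 14 a lower level than in P-Enter. The interval left out 1 for 3 of the higher and 11 of the lower, where 25.5% and 23.9% of all genes did so, and the median difference was -0.13. Genes with more reads have narrower intervals, CALR for example with 23597 reads in P-Enter. Since the share of all genes was not matched for read depth, these counts cannot be read as an excess. TMEM38B, a potassium channel of the endoplasmic reticulum, was at 14.6 against 9.71 FPKM (read ratio 1.501) and the chaperone HSP90B1 at 41.6 against 32.7 (1.28). FKBP10, which assists procollagen folding, was at 45.7 against 55.6 FPKM (0.822) and calreticulin (CALR) at 551 against 633 (0.870). After the regression the median was -0.05 and the interval lay above 1 for 1 (17% of all genes) and below 1 for 5 of the 17 (16.5%), and the ratio of TMEM38B was 1.06 (0.961 to 1.18). For WT the counts were 2 above (14% of all genes) and 7 below 1 (12.1%), and after the regression 2 (10%) and 4 (10.5%).

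All 17 procollagen export genes with a row were above the filter, and in L597R against P-Enter 6 of the 16 with recovered reads had an interval above 1 (25.5% of all genes) and 2 had one below (23.9%), with a median difference of 0.08. SEC23A and SEC24A, coat proteins of the vesicles that leave the endoplasmic reticulum, were at 17.6 against 13.6 FPKM (1.29) and 8.64 against 6.49 (1.33), and SEC24B at 11.7 against 9.83 (1.19), while SEC13 was at 24.8 against 28.9 (0.858). After the regression the median was 0.04, with 0 above 1 (17% of all genes) and 2 below (16.5%). Those 2 were MIA2 at 0.686 (0.572 to 0.824) and SAR1B, which turned from 1.15 (1.07 to 1.24) to 0.928 (0.862 to 0.9998), while the intervals of SEC13 and SEC24C, below 1 before, then held 1. For WT the interval lay above 1 for 3 (14% of all genes) and below 1 for 0 (12.1%), and after the regression for 1 and 1 (10% and 10.5%). Of 9 propeptide-processing genes 2 were above the filter, PCOLCE2 and FURIN. The procollagen C-proteinase BMP1 was at 0.905, 1.04 and 0.827 FPKM.

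Of 10 listed collagen receptors 4 were above the filter. The integrin chains ITGB1 (76.6, 83.9 and 100.1 FPKM) and ITGA2 (3.78, 4.17 and 4.87) were higher in L597R than in P-Enter, at read ratios of 1.31 and 1.29. The endocytic collagen receptor MRC2 (16.99, 15.0 and 13.5) and the receptor kinase DDR1 (1.204, 1.08 and 0.905) were lower, at 0.794 and 0.751. After the regression ITGB1 at 1.11 (1.09 to 1.14) and MRC2 at 0.886 (0.824 to 0.952) had intervals leaving out 1, and those of ITGA2 and DDR1 held 1. Of 10 listed collagen-degrading proteases and prolidase 4 were above the filter: the lysosomal cathepsin CTSL was higher at 34.3 against 29.8 FPKM (1.15), and CTSB (0.838), PEPD (0.904) and MMP14 (0.907) were lower. After the regression CTSL was at 1.24 (1.18 to 1.31) and CTSB at 0.902 (0.828 to 0.983), while PEPD at 1.02 (0.955 to 1.08) and MMP14 at 1.02 (0.949 to 1.103) had turned, with intervals holding 1. Below the filter, and chosen after its values were seen, the interstitial collagenase MMP1 had 2, 3 and 24 reads, a ratio of 9.61 (2.39 to 83.9) for L597R against P-Enter. Of 14 listed collagen-binding matrix proteins 4 were above it. HSPG2 (perlecan) at 0.870 and NID1 at 0.923 were lower, THBS1 at 1.103 was higher, and the interval of FN1 at 1.06 (0.995 to 1.14) held 1. After the regression HSPG2 at 0.934 (0.889 to 0.980) was below 1 and FN1 at 1.08 (1.01 to 1.15) above it. The intervals of NID1 at 0.984 (0.919 to 1.05) and THBS1 at 1.05 (0.973 to 1.14) then held 1. SPARC, below the filter and likewise chosen after its values were seen, had 64, 45 and 47 reads, a ratio of 0.588 (0.395 to 0.870) for L597R against P-Enter. COLGALT2, the folding and modifying factor below the filter, had 32, 47 and 70 reads, and its interval in that comparison lay above 1. The share of all genes below the filter with such intervals was not computed. The values of MMP1, SPARC and COLGALT2 therefore cannot be read as results about these genes.

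The hypoxia-responsive genes other than the members differed in both directions. Of the 16 listed genes that are no members, 11 were above the filter, with a median of -0.03 in L597R against P-Enter, 2 intervals above 1 (25.5% of all genes) and 5 below (23.9%). LDHA, which makes lactate, was at 43.0 against 53.3 FPKM (0.806), and the read ratios of the glycolytic PGK1 and ENO1 were 0.868 and 0.897. KDM3A, a histone demethylase, was higher at 1.26. The corresponding median was -0.02 for WT, with 0 above (14%) and 5 below 1 (12.1%). After the regression the median for L597R was 0.05, with 6 above (17%) and 2 below 1 (16.5%), and LDHA was at 0.753 (0.722 to 0.786). PGK1 was then at 0.804 (0.779 to 0.830) and KDM3A at 1.19 (1.04 to 1.37), while ENO1 turned to 1.02 (1.01 to 1.04). The others then above 1 were BNIP3 and ADM at 1.15 and NDRG1 and PFKFB3 at 1.14. In WT against P-Enter 1 was above 1 (10%) and 3 were below it (10.5%) after the regression. The sign of the median therefore turned with the regression, and it is not independent of the choice of the members.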

How the data were processed

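The values of the 3 DU145 libraries are FPKM for each Ensembl gene as the authors deposited them. Per the labels' protocols, Trizol RNA went into a stranded mRNA kit. The submitters' processing notes name HISAT2, HTSeq, Cufflinks and Trimmomatic and the build hg38/GRCh38. Versions, annotation release and strand setting are not given in the sources used here.

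Of the Ensembl IDs, 23330 had a symbol in the reference name table; positions, exon lengths and GC content (longest coding transcript) came from GENCODE 29 on GRCh38 (22807 matched). FPKM times gene length is proportional to a whole number of reads. The library totals and lengths giving whole reads in all 3 libraries (tolerance 1e-05, lengths within 3-fold of the annotation) were searched for, which recovered reads for 98.4% of genes and all 45 members. For 9 of the 12 members above the filter the implied length was within 2% of the annotated one, the others being LOXL2, COL12A1 and P4HA2. Their implied lengths were 5985, 18860 and 10128 bp, against 5707, 12481 and 8502 bp annotated. The regression used the annotated lengths. The method was tested on simulated data.

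Differences were taken on log2(FPKM + 1), which understates the change of low genes, for genes with a mean of at least 1 FPKM. Read ratios had exact Clopper-Pearson 95% intervals, conditional on the sum of both counts. Copies made by polymerase chain reaction are not independent molecules, so intervals and limits cover counting error only. Each count of members stands beside the share of all genes on the same side. That share was not matched for read depth, on which the width of an interval depends. Values were given for all 12 processing genes, the 12 highest chains and any member whose interval lay beyond 1.2-fold, and for up to 4 genes of each further list, with a mean of at least 1 FPKM, ranked by how far their interval lay from 1 in L597R against P-Enter. Lists of cell type markers were not under this rule, and some genes of the further lists were named outside it. The members, lists and rules were chosen with earlier results of these data known. Alternatives were pseudocounts (0.1 and 5), filters (none and 5 FPKM), fold thresholds, rescaling by the median ratio, 99% intervals and the regression. Software was Python 3.11.15 with scipy 1.17.1, numpy 2.4.6, matplotlib 3.10.9 and pandas 2.3.3.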

Additional observations from a re-analysis of the deposited data

How the results depend on the processing

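Of 75 recomputed counts and medians over the members, 61 stayed within 1.5 times the count or 0.1 of the median, and none of the medians changed sign, although with the regression the median in L597R against P-Enter went from -0.12 to -0.02. Among the 75 are the counts past the size rule, which were 0 in every comparison and so had little room to move. With a threshold of 1.5-fold 1 member, PLOD2, passed the size rule in L597R against P-Enter. Without a filter the median there was -0.0073 over 45 members. The count of members with an interval below 1 fell with the regression to 0 (WT against P-Enter), 2 (L597R against P-Enter) and 2 (L597R against WT), and with an interval beyond 1.1-fold to 0, 2 and 1, in that order. It was 2 in L597R against WT with a 99% interval. The count above 1 in WT against P-Enter was 1 beyond 1.1-fold. The regression with GC content of the longest transcript of any kind, an alternative chosen after seeing the data, gave 1 above and 0 below 1 for WT, and 2 below 1 for L597R in both of its comparisons. By gene, the regression turned the direction of SERPINH1 (1.02) and PLOD3 (1.01) in L597R against P-Enter and of PLOD3 (1.002) and PLOD1 (1.01) in L597R against WT; with the other GC content these were 1.01, 1.01, 1.004 and 1.01. Ratios whose interval held 1 before and after also crossed 1 with the regression: LOX (0.943) and PLOD3 (1.01) in WT against P-Enter and SERPINH1 (1.03) in L597R against WT. With the other GC content PLOD2 was at 1.02 in WT against P-Enter, its interval then holding 1. For PLOD2 in L597R it gave 1.14 against P-Enter and 1.12 against WT, lower than the 1.23 and 1.18 with the first GC content. Of 36 gene ratios, rescaling by the median ratio brought 1 to an interval holding 1, SERPINH1 in WT at 0.953. The 36 include ratios whose interval held 1 before rescaling, which could not be lost in this way. The wider threshold, the 99% interval and the missing filter change these counts by their construction; for the regression the cause was not tested. No paired analysis was possible because each group has 1 library. Depth limited the 33 members below 1 FPKM, 19 of which had fewer than 10 reads.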
